A study of Mus musculus with 6 samples.

Results

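The BCL2 family decides in a lymphocyte whether the outer mitochondrial membrane stays closed. The 10 genes described here were chosen by name, as members well known from T cells, by a rule that uses no measured value but was written with earlier results of these data known: the prosurvival genes Bcl2, Bcl2l1 (BCL-XL) and Mcl1, the effector genes Bax and Bak1, and the BH3-only genes Bcl2l11 (BIM), Bid, Bad, Bbc3 (PUMA) and Pmaip1 (NOXA). They were 10 of 54532 genes listed in the count table and 10 of the 15938 genes with enough reads to be tested, so all 10 could be compared.

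RNA was sequenced from 6 cultures of CD4+ T cells that were taken by negative bead selection from spleens of male C57BL/6 mice aged 6 to 8 weeks. Every culture was stimulated through CD3 and CD28 and polarised towards Th1 cells with IL-2, IL-12 and an antibody to IL-4 for 72 h. The control group held 3 cultures, given vehicle (0.1% DMSO) by the study's methods. The ALX-5407 group held 3 cultures with 500 nM ALX-5407, which blocks the glycine transporter GlyT1 (Slc6a9). The study's results call the controls untreated and the sample titles name no vehicle. The controls are called vehicle cultures here, after the methods. Both groups were Th1 cultures, and no unpolarised culture was compared here. The labels call the cultures biological replicates without saying whether they came from separate animals, so p-values measured the spread between these cultures only. The sample titles name ALX-5407 treatment in a 72 h Th1 culture and give no separate time for the drug. For sequencing, the study's methods describe a shorter exposure, whereas a figure legend places the drug in the culture medium and names no shorter time. Polarised cultures of bulk cells hold cells at different stages, and fewer cells of a type cannot be told apart from less RNA per cell in such libraries.

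Each library held 30801753 to 36727788 counts on genes. All 9 markers of CD4 T and Th1 cells were expressed, with a summed level of 2967 to 3182 CPM (counts scaled to the size of each library, so that libraries can be compared) in the vehicle cultures and 2810 to 2869 CPM in the ALX-5407 cultures. Among 24 markers of other cells, 11 had enough counts to be tested and 4 (S100a8, S100a9 and Siglech among them) were at 0 in every library. Their summed level was 89.7 to 95.3 CPM with vehicle and 47.0 to 55.9 CPM with ALX-5407, most of it from Ly6g, and 19.9 to 20.1 against 23.0 to 24.3 CPM without Ly6g.

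As background, prosurvival proteins hold Bax and Bak1 in check and bind BH3-only proteins in a groove on their surface. BH3-only proteins respond to stress or to loss of growth factor, occupy that groove or act on the effectors directly, and the effectors then open the outer membrane, which releases cytochrome c and sets off caspases. In T cells Bcl2 supports resting and memory cells, Bcl2l1 is induced by costimulation, Mcl1 has a short-lived protein that cells need at most stages, and Bcl2l11 is the main BH3-only protein in the contraction of activated cells. Much of this control acts on the proteins, by cleavage, phosphorylation and degradation, and none of it is measured by RNA sequencing.

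RefSeq promoter windows on GRCm38.p6, each with 250 bases before and 50 bases after a start site, were found for 9 of the 10 members, 15 windows in all. A set of 4 is shown. Those of Bcl2 and Bid belong to genes that rose with ALX-5407 (described with their values further on). Those of Bax and Bcl2l11 (its upstream window) belong to genes that did not pass the test. All are written 5′ to 3′ on the strand of the gene, and capitals mark the letters that matched a searched motif on either strand. The windows are, in order, chr1:106714241-106714540 (minus strand), chr6:120916775-120917074 (minus strand), chr7:45466849-45467148 (minus strand) and chr2:128125788-128126087 (plus strand).
Bcl2: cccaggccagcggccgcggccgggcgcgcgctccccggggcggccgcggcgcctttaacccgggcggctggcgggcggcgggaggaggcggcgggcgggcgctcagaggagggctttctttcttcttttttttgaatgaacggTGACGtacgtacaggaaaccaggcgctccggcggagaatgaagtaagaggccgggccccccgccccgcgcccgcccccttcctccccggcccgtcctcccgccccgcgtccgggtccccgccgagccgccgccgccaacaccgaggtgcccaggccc
Bid: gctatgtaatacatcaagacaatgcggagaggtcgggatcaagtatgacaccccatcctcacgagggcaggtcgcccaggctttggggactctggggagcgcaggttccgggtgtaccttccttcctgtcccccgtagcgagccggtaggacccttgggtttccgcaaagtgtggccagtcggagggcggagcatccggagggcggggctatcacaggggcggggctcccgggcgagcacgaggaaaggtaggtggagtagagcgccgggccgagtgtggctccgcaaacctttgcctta
Bax: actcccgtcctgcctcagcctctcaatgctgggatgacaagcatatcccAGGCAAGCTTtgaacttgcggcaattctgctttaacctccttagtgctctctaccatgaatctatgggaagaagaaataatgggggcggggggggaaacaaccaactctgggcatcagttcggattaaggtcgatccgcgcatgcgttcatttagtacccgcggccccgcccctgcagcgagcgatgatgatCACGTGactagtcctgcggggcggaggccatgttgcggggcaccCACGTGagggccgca
Bcl2l11: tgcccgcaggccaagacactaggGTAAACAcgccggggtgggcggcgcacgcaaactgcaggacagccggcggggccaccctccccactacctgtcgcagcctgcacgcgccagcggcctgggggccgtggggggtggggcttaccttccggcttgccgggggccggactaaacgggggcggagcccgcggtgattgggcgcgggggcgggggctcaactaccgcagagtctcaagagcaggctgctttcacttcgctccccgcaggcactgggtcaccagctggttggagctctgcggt

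The searched motifs were those of FOXO factors (GTAAACA, in 3.65% of the 32851 windows), the full cyclic AMP response element (TGACGTCA, 1.79%) and its core (TGACG, 20.8%, also counted within the full element), AP-1 (TGANTCA, 7.81%), the STAT site (TTCNNNGAA, 8.30%), the E-box (CACGTG, 7.15%), the ATF4 composite site (TTGCATCA, 0.895%) and the p53 decamer (8.36%). The Bcl2 window held 1 core of the cyclic AMP response element, starting 107 bases before the start site, and none of the other motifs. The Bid window held no match. The Bax window held 1 p53 decamer and 2 E-boxes. The printed Bcl2l11 window held 1 FOXO match, 227 bases before the start site. The other Bcl2l11 window (chr2:128127325-128127624) held no match to any searched motif. Of the 3 Bbc3 windows, 1 also held a FOXO match, 167 bases before its start. Bases G and C made up 76.0% of the Bcl2 window against a median of 52.7% over all windows. These matches describe letters only and do not show binding of a factor.

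Among the 10 members, ALX-5407 cultures had more transcript of Bcl2, Bcl2l1 and Bid and less of Pmaip1, and the other 6 did not pass the test. The groups were compared on the counts with the quasi-likelihood test of edgeR, and a gene was called at a Benjamini-Hochberg adjusted p under 0.05 over all genes tested. Over all genes tested, 24.5% were called higher and 23.2% were called lower, so a count of 3 higher and 1 lower among 10 was near that background. The groups did not overlap in 4 of the 10 members, those that were called, against 55.5% of all genes tested. The median log2 fold change was 0.045 over the 10 members and 0.0053 over all genes tested. None of the 10 met the rule of the study's methods, which also asks for a log2 fold change beyond 1 in size, whereas 3.36% of all genes tested met it with higher levels. An unadjusted p cannot change that count of 0, because no member was beyond 1 in size. The count was also 0 by DESeq2 and by limma-voom, whereas Bcl2 was over 1 in 5 of the 15 alternative fits.

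**Figure D1:**
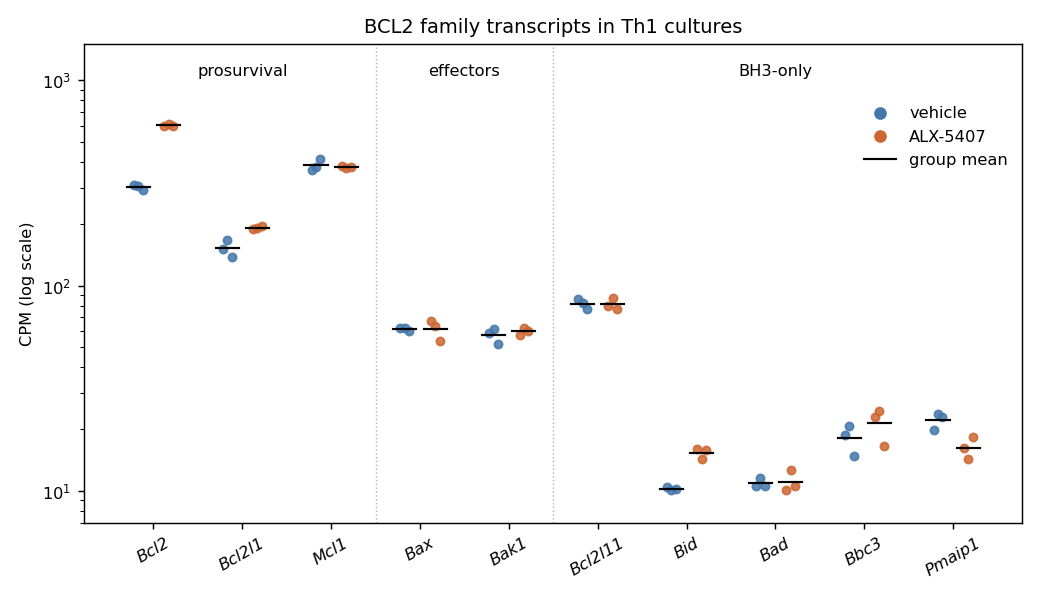
Levels of the 10 BCL2 family transcripts in the 6 cultures, as CPM on a log scale, with a point for each culture (3 vehicle, 3 ALX-5407) and a short line for each group mean. Bcl2 lies at 292 to 310.2 CPM in the vehicle cultures and at 597 to 612 CPM in the ALX-5407 cultures, while the points of Mcl1, Bax, Bak1, Bcl2l11, Bad and Bbc3 overlap between groups.

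The prosurvival gene Bcl2 (ENSMUSG00000057329, chr1:106538178-106714274 on the minus strand of GRCm38) rose the most of the 10. Its protein sits in the outer mitochondrial membrane and binds BIM, and its promoter window is printed above. Its level was 310.2, 304 and 292 CPM in the 3 vehicle cultures and 597, 612 and 600.2 CPM in the 3 ALX-5407 cultures. Every ALX-5407 culture was far above every vehicle culture, and the spread within each group was small beside the gap. The means were 302 ± 9.10 and 603 ± 7.96 CPM (SD, n = 3 per group), and the log2 fold change was 1.00 ± 0.068 (SE) with a 95% interval of 0.85 to 1.14 and an adjusted p of 1.09e-08 in edgeR's quasi-likelihood test. This put the gene at the edge of the 2.00-fold rule, and 639 of the 15938 genes had a larger log2 fold change. In the 15 alternative fits its log2 fold change lay between 0.94 and 1.06, and it was over 1 in 5 of them. An antisense gene, D630008O14Rik, shares 6.09% of the exon bases of Bcl2 and had 194 counts over the 6 libraries, against 8994 to 22846 counts of Bcl2 in each.

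Markers of other cells moved as well, and their part in the result for Bcl2 was not tested. The summed level of the 5 B cell markers was 7.60 to 8.84 CPM in the vehicle cultures and 11.4 to 14.4 CPM in the ALX-5407 cultures, with Cd79a, Ms4a1 and Pax5 called higher. Ly6g fell by 1.42 on the log2 scale, from 72.1 ± 2.81 to 27.0 ± 4.04 CPM (SD, n = 3 each). Of the 9 CD4 T and Th1 markers, 3 were called higher and 4 lower, against 24.5% and 23.2% of all genes tested. Cd28, Tbx21 and Thy1 rose by 0.52, 0.34 and 0.27 on the log2 scale. The 4 called lower were Cd3d, Cd3g, Cd4 and Ifng. Cd4 fell from 646 ± 67.4 to 469.7 ± 10.8 CPM (SD, n = 3 per group).

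Bcl2l1, which encodes the prosurvival protein BCL-XL (ENSMUSG00000007659, chr2:152780668-152831728, minus strand), rose by a smaller amount. Its level was 151, 167 and 137 CPM with vehicle and 188, 191 and 196 CPM with ALX-5407. The vehicle cultures were spread more widely than the ALX-5407 cultures, and the highest of them stayed below the lowest ALX-5407 culture. The means were 152 ± 15.04 and 192 ± 4.08 CPM (SD, n = 3 per group), and the log2 fold change was 0.34 ± 0.078 (SE) with an adjusted p of 0.00197 in edgeR's quasi-likelihood test. The gene makes a long prosurvival form and a short form that promotes death by alternative splicing, and counts per gene do not separate them, nor the 9 annotated transcripts in all.

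Mcl1 (ENSMUSG00000038612, chr3:95658788-95663176, plus strand), whose labile protein binds NOXA and BIM, did not pass the test. Its level was 365, 377 and 414 CPM with vehicle and 380.3, 374 and 376 CPM with ALX-5407. The 3 ALX-5407 values lay inside the range of the vehicle values. The log2 fold change was -0.033 with a 95% interval of -0.18 to 0.12 and an adjusted p of 0.735 in edgeR's quasi-likelihood test, so a change beyond this interval was not seen at this depth. Mcl1 shared no exon bases with another gene.

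Neither effector gene passed the test. Bax (ENSMUSG00000003873, chr7:45461697-45466898, minus strand), which moves from the cytosol to mitochondria when activated, was at 62.4, 62.4 and 60.15 CPM with vehicle and at 67.0, 63.8 and 53.9 CPM with ALX-5407. The ALX-5407 cultures reached both above and below the vehicle cultures. Its log2 fold change was -0.0018 with a 95% interval of -0.18 to 0.18 and an adjusted p of 0.989. Bak1 (ENSMUSG00000057789, chr17:27019810-27029009, minus strand), the effector that already sits in the mitochondrial membrane, was at 58.5, 61.7 and 52.1 CPM with vehicle and at 57.5, 62.1 and 60.4 CPM with ALX-5407. The groups overlapped, and the log2 fold change was 0.063 with a 95% interval of -0.11 to 0.23 and an adjusted p of 0.554. Bak1 shares exon bases with Ggnbp1, which had 629 counts over the 6 libraries, and Bax with Gm45808, which had 0.

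The 5 BH3-only genes differed from each other: Bid rose, Pmaip1 fell, and Bcl2l11, Bad and Bbc3 did not pass the test. Their median log2 fold change was 0.027, that of the prosurvival genes was 0.34 and that of the effector genes was 0.030.

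Bid (ENSMUSG00000004446, chr6:120891930-120916853, minus strand) encodes the protein that Casp8 cuts to link death receptors with mitochondria. Its level was 10.4, 10.1 and 10.2 CPM with vehicle and 16.0, 14.3 and 15.8 CPM with ALX-5407. All 3 ALX-5407 cultures were above all vehicle cultures, which lay close together. The means were 10.3 ± 0.18 and 15.4 ± 0.95 CPM (SD, n = 3 per group), and the log2 fold change was 0.58 ± 0.11 (SE) with an adjusted p of 3.79e-04 in edgeR's quasi-likelihood test. The values rest on 315 to 566 counts per library. The 3′ end of Bid lies over exons of Bcl2l13 on the other strand, 17.7% of its exon bases, and whether counting used strand is not given in the sources used here. Bcl2l13 had 14996 counts over the 6 libraries and a log2 fold change of 0.13 (adjusted p = 0.165), and its part in the counts of Bid was not tested.

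Pmaip1 (ENSMUSG00000024521), which encodes NOXA, a BH3-only protein that binds MCL1 and speeds its breakdown, was the member that fell. Its level was 19.7, 23.6 and 22.8 CPM with vehicle and 16.1, 14.3 and 18.2 CPM with ALX-5407. The lowest vehicle culture was above the highest ALX-5407 culture by a narrow gap. The means were 22.1 ± 2.05 and 16.2 ± 1.94 CPM (SD, n = 3 per group), and the log2 fold change was -0.44 ± 0.11 (SE) with an adjusted p of 0.00391 in edgeR's quasi-likelihood test.

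Bcl2l11 (ENSMUSG00000027381, chr2:128126038-128162547, plus strand), which encodes BIM, was at 86.5, 82.2 and 76.6 CPM with vehicle and at 79.4, 86.9 and 77.3 CPM with ALX-5407. The 2 sets of values lay over each other. The log2 fold change was -0.0095 with a 95% interval of -0.17 to 0.15 and an adjusted p of 0.934 in edgeR's quasi-likelihood test. BIM is made in several spliced forms of unequal potency, which counts per gene do not separate.

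Bad (ENSMUSG00000024959, chr19:6941861-6951898, plus strand), whose protein is held in the cytosol when growth factor kinases phosphorylate it, was at 10.5, 11.6 and 10.6 CPM with vehicle and at 10.1, 12.6 and 10.6 CPM with ALX-5407. The groups overlapped, and the 95% interval of the log2 fold change was -0.24 to 0.29 (adjusted p = 0.880). Bad shares 20.5% of its exon bases with Gpr137 on the other strand, which had 2985 counts over the 6 libraries.

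Bbc3 (ENSMUSG00000002083, chr7:16308393-16318205, plus strand), which encodes PUMA, a target of p53 and FOXO factors, was at 18.7, 20.7 and 14.9 CPM with vehicle and at 23.0, 24.5 and 16.6 CPM with ALX-5407. Replicate 3 had the lowest value in each group, and the groups overlapped. The log2 fold change was 0.24 with a 95% interval of -0.063 to 0.54 and an adjusted p of 0.184 in edgeR's quasi-likelihood test. Without ALX-5407 replicate 3 the log2 fold change was 0.40 and the gene was called higher (adjusted p = 0.0259), so 1 library decided this call.

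**Figure D2:**
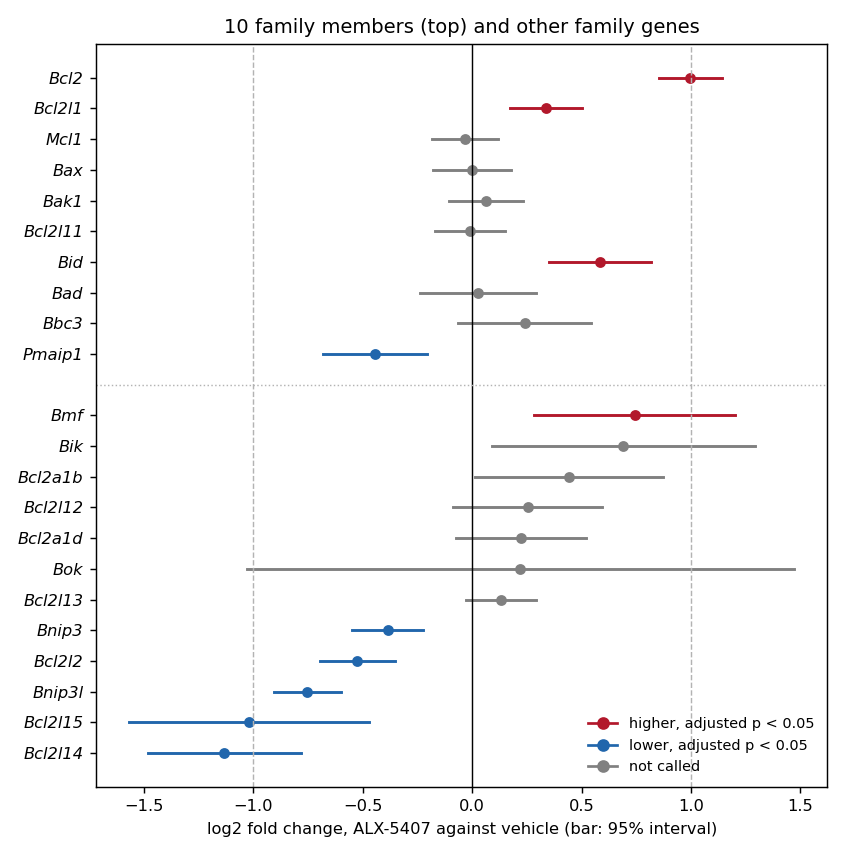
Log2 fold change of ALX-5407 against vehicle with its 95% interval for the 10 members (top) and the other tested family genes (bottom), coloured by whether the gene was called higher, lower or not. Bcl2 has the largest value of the 10 members at 1.00, Pmaip1 has the lowest at -0.44, and the intervals of Mcl1, Bax, Bak1, Bcl2l11, Bad and Bbc3 cross 0.

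Levels of different members were compared only after division by gene length, as CPM per kilobase. In the vehicle cultures Mcl1 led with a mean of 112.8, followed by Bax at 39.1, Bcl2l1 at 33.1, Bcl2 at 32.99 and Bak1 at 23.9. The BH3-only genes all lay below them, with Bcl2l11 at 10.2, Bbc3 at 8.52, Pmaip1 at 8.34, Bad at 5.44 and Bid at 2.89. The ranges over cultures of Bcl2l1 and Bcl2 overlapped there, as did those of Bbc3 and Pmaip1. Those of Bcl2l11 and Bbc3 overlapped too, although Bcl2l11 was above Bbc3 in each of the 3 cultures.

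In the ALX-5407 cultures Bcl2 stood in the second place at a mean of 65.9 CPM per kilobase, below Mcl1 at 110.2 and above Bcl2l1 at 41.8 and Bax at 39.1, the last 2 of which overlapped. Bak1 was at 24.9, Bcl2l11 at 10.1, Bbc3 at 10.1, Pmaip1 at 6.14, Bad at 5.54 and Bid at 4.33. The ranges of Bcl2l11 and Bbc3 overlapped, with Bcl2l11 above in 1 of 3 cultures, as did those of Pmaip1 and Bad, with Pmaip1 above in 2 of 3. Bid was the least abundant of the 10 in both groups.

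Ratios between members on the scale per length are given as descriptions, with no test. The ratio of Bcl2 to Bax was 0.84 with vehicle (0.836 to 0.855 over the 3 cultures) and 1.69 with ALX-5407 (1.53 to 1.92). That of Bcl2 to Bcl2l11 was 3.24 (3.15 to 3.34) and 6.52 (6.18 to 6.80). In both pairs the cultures of the groups did not overlap, and neither partner of Bcl2 passed the test by itself. The ratio of Bcl2l1 to Bcl2 was 1.00 (0.936 to 1.10) with vehicle and 0.635 (0.624 to 0.652) with ALX-5407, both genes having risen by unequal amounts. That of Mcl1 to Pmaip1 was 13.5 (12.3 to 14.3) and 18.0 (16.0 to 20.2).

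Summed over the 10 members, the level was 277 ± 5.004 CPM per kilobase with vehicle and 318 ± 5.70 with ALX-5407 (SD, n = 3 each). Bcl2 made up 11.9 ± 0.451% of the sum with vehicle and 20.7 ± 0.330% with ALX-5407. The share of Mcl1 was 40.7 ± 2.78% and 34.7 ± 0.682% while the CPM of Mcl1 itself did not pass the test. The prosurvival genes together held 64.5 ± 1.51% and 68.5 ± 1.32%, the effectors 22.7 ± 0.939% and 20.1 ± 0.939%, and the BH3-only genes 12.8 ± 0.612% and 11.4 ± 0.442% (SD, n = 3 each). These are shares of transcript and not of protein. A smaller share is not a lower level, because the sum was larger with ALX-5407. Neither effector gene passed the test, and of the 5 BH3-only genes only Pmaip1 was called lower.

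**Figure D3:**
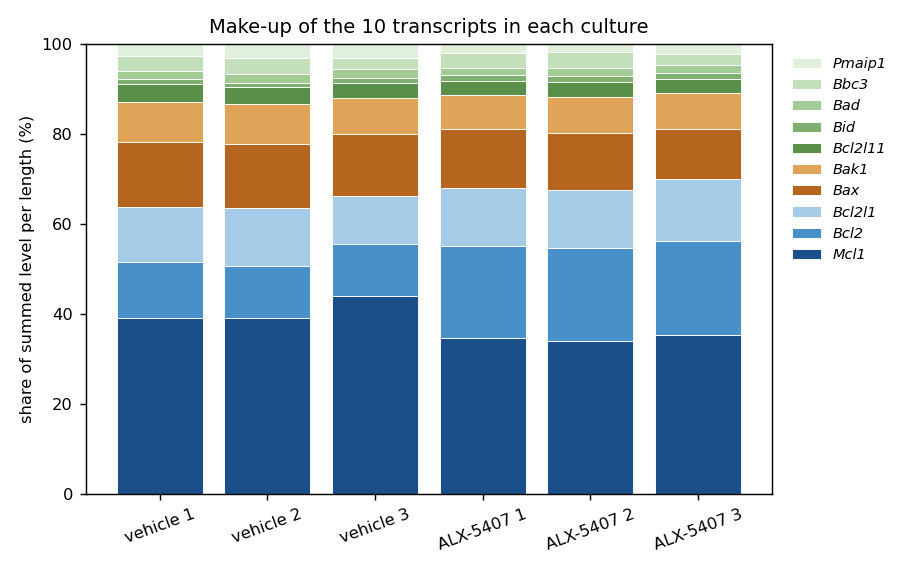
Share of each of the 10 transcripts in their summed level per length (percent, stacked to 100) in each of the 6 cultures. The share of Bcl2 is 11.6 to 12.4% in the vehicle cultures and 20.4 to 21.03% in the ALX-5407 cultures, and Mcl1 is the largest share in every culture.

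The wider family was read from a list of 15 genes, of which 12 could be tested. Of these, 1 was called higher, 5 were called lower and 6 were not called, with a median log2 fold change of 0.18. Over all genes tested, 24.5% were called higher and 23.2% lower. Bmf, a BH3-only gene whose protein is tied to the cytoskeleton, rose from 2.42 ± 0.52 to 4.05 ± 0.68 CPM (SD, n = 3 each; log2 fold change 0.74 ± 0.22 SE, adjusted p = 0.00966), and the call was lost without vehicle replicate 2 (adjusted p = 0.0565) and without ALX-5407 replicate 3 (adjusted p = 0.0508). The prosurvival gene Bcl2l2 (BCL-W) went the other way from Bcl2 and fell from 55.3 ± 4.27 to 38.4 ± 0.90 CPM (log2 fold change -0.52 ± 0.081 SE, adjusted p = 5.41e-05). Bnip3l and Bnip3, which act in the removal of mitochondria and respond to low oxygen, fell by 0.75 and 0.39 on the log2 scale (adjusted p = 4.37e-07 and 6.18e-04). Bcl2l14 fell by 1.13 (adjusted p = 3.31e-05). Bcl2l15, named after its values were seen as the remaining call, fell by 1.02 (adjusted p = 0.00388). All of these are calls of edgeR's quasi-likelihood test.

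Of the other prosurvival and BH3-only genes in that list, Bik had a log2 fold change of 0.69 with no overlap between groups and an adjusted p of 0.0555. Bcl2a1b and Bcl2a1d, which encode A1 proteins induced by NF-kappaB, had 0.44 (adjusted p = 0.0843) and 0.22 (adjusted p = 0.210). They are near-identical copies, so reads may be split between them and their values are uncertain. Bcl2a1a, Bcl2l10 and Hrk had too few counts to be tested.

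Downstream of mitochondria, transcripts of caspases were among those higher in the ALX-5407 cultures. Of 16 genes of the apoptosome, caspases and their inhibitors, 7 were called higher, 1 was called lower and 8 were not called (median log2 fold change 0.17), against the 24.5% and 23.2% of all genes. Casp6, which cuts lamins, rose from 129.9 ± 17.4 to 198 ± 8.83 CPM (SD, n = 3 per group; log2 fold change 0.61, adjusted p = 2.72e-05). The initiator Casp9 rose from 10.2 ± 1.5 to 15.5 ± 1.05 CPM (0.61, adjusted p = 8.00e-04). Birc2, which encodes the ubiquitin ligase cIAP1, fell from 201 ± 18.5 to 87.9 ± 3.56 CPM (log2 fold change -1.19, adjusted p = 8.06e-09). The inhibitor genes went both ways, as Xiap and Birc5 rose by 0.26 and 0.31 (adjusted p = 0.0132 and 0.0181 in edgeR's quasi-likelihood test). The calls of Xiap and Birc5 were lost in 2 and 3 of the 15 alternative fits. Birc3 was not called (log2 fold change -0.16, adjusted p = 0.0744). The count of 7 was 4 without vehicle replicate 1.

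The death receptor route, which reaches mitochondria through Bid, had 7 of 13 genes called higher, 2 lower and 4 not called (median 0.18). The shares of all genes tested were 24.5% higher and 23.2% lower. The count of 7 ranged from 5 to 8 over the 15 alternative fits. It was 5 with upper-quartile factors, with protein-coding genes alone, and on leaving out any single library except vehicle replicate 3. Casp8, the protease that cuts Bid, rose from 121 ± 4.62 to 167 ± 7.51 CPM (log2 fold change 0.46, adjusted p = 4.97e-05), and the adaptor Fadd rose by 0.89 on the log2 scale (adjusted p = 4.92e-04). The receptor gene Tnfrsf10b and the cytokine gene Tnf rose by 0.65 and 0.61 (adjusted p = 5.17e-05 and 7.04e-05). The ligand gene Fasl fell from 18.8 ± 3.12 to 6.38 ± 0.42 CPM (log2 fold change -1.56, adjusted p = 1.42e-07), and Tnfsf10 (TRAIL) fell by 0.58 (adjusted p = 7.24e-04). The adaptor gene Tradd rose as well, by 0.52 (adjusted p = 6.5e-04 in edgeR's quasi-likelihood test), and Ripk1 by 0.20 (adjusted p = 0.0279). The call of Ripk1 was lost in 7 of the 15 alternative fits. The receptor genes Fas and Tnfrsf1a and the adaptor gene Traf2 had log2 fold changes of -0.067, -0.041 and 0.080. None of them passed edgeR's quasi-likelihood test (adjusted p = 0.553, 0.765 and 0.469).

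Of the transcription regulators known to act on family genes, 14 of 15 could be tested, and 6 were called higher, 4 lower and 4 not called (median 0.021). Among all genes tested the shares were 24.5% higher and 23.2% lower. Trib3, a pseudokinase gene of the stress response, rose from 31.2 ± 1.81 to 96.5 ± 5.19 CPM (log2 fold change 1.63, adjusted p = 3.18e-10). Foxo3, whose product can act on Bcl2l11 and Bbc3, rose by 0.84 (adjusted p = 5.63e-07), while Bcl2l11 and Bbc3 did not pass the test. Trp53 rose by 0.64 (adjusted p = 6.93e-06). Among its textbook targets, Pmaip1 fell, Tnfrsf10b rose as given above, and Bax and Bbc3 did not pass the test. Mdm2 did not pass it either (log2 fold change -0.11, adjusted p = 0.193). The part of Trp53 in these values was not tested. Myc rose by 0.57 (adjusted p = 1.62e-05). Atf4, Stat3 and Ddit3 (CHOP) fell by 0.69, 0.61 and 0.47 (adjusted p = 1.81e-06, 1.06e-05 and 4.86e-04). Rel fell by 0.22 (adjusted p = 0.0263), a call lost without vehicle replicate 2 and without ALX-5407 replicate 1 or 2 (adjusted p up to 0.124).

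Proteins that bind or modify family members were read from a list of 24 genes, with 11 called higher, 5 lower and 8 not called (median 0.049). This compares with 24.5% higher and 23.2% lower over all genes tested. Ppp3ca, the calcineurin subunit that dephosphorylates Bad, rose from 14.2 ± 1.99 to 33.6 ± 1.94 CPM (log2 fold change 1.24, adjusted p = 1.46e-07). The kinase genes Rps6ka1, Akt1 and Pim1, whose products phosphorylate Bad, rose by 0.81, 0.62 and 0.76 (adjusted p = 2.16e-07, 1.90e-06 and 4.30e-06). Pim2 fell by 0.49 (adjusted p = 3.22e-04) and Pim3 by 0.31 (adjusted p = 0.0175). Ywhae, a scaffold that holds phosphorylated Bad, fell by 0.30 (adjusted p = 0.0215), with values that overlapped between groups. The related gene Ywhaz rose by 0.26 with no overlap (adjusted p = 0.0105 in edgeR's quasi-likelihood test). The call of Ywhaz was lost without vehicle replicate 1 (adjusted p = 0.0563). The calls of Pim3 and Ywhae were lost on leaving out single libraries, vehicle replicate 1 and ALX-5407 replicate 3 for both and vehicle replicate 2, ALX-5407 replicate 1 and ALX-5407 replicate 2 for Ywhae, with adjusted p up to 0.139. The count of 11 was 7 without vehicle replicate 1, and the count of 5 was 1 without vehicle replicate 1, 3 without vehicle replicate 2 or ALX-5407 replicate 1, and 2 without ALX-5407 replicate 2 or 3.

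The receptors and kinases through which cytokines sustain Bcl2 and Mcl1 in T cells moved both ways, with 4 of 10 called higher, 4 lower and 2 not called (median -0.014). All genes tested were called higher in 24.5% and lower in 23.2% of cases. Il2ra, the high-affinity subunit of the IL-2 receptor, rose by 0.44 (adjusted p = 6.63e-04) and Il2rb by 0.27 (adjusted p = 0.00991), whereas their shared partner Il2rg fell by 0.39 (adjusted p = 7.10e-04). Il7r, the receptor chain for IL-7, fell from 321 ± 18.9 to 252 ± 4.76 CPM (SD, n = 3 each; log2 fold change -0.35, adjusted p = 7.07e-04). Il21r and Jak1 rose by 0.37 and 0.24 (adjusted p = 9.31e-04 and 0.00948). Stat5b and Jak3 fell by 0.23 and 0.20 (adjusted p = 0.0116 and 0.0383). The call of Stat5b was lost without ALX-5407 replicate 1 (adjusted p = 0.0646), that of Jak3 without vehicle replicate 1 and without each ALX-5407 replicate (up to 0.184), and the count of 4 lower was 2 without ALX-5407 replicate 1.

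**Figure D4:**
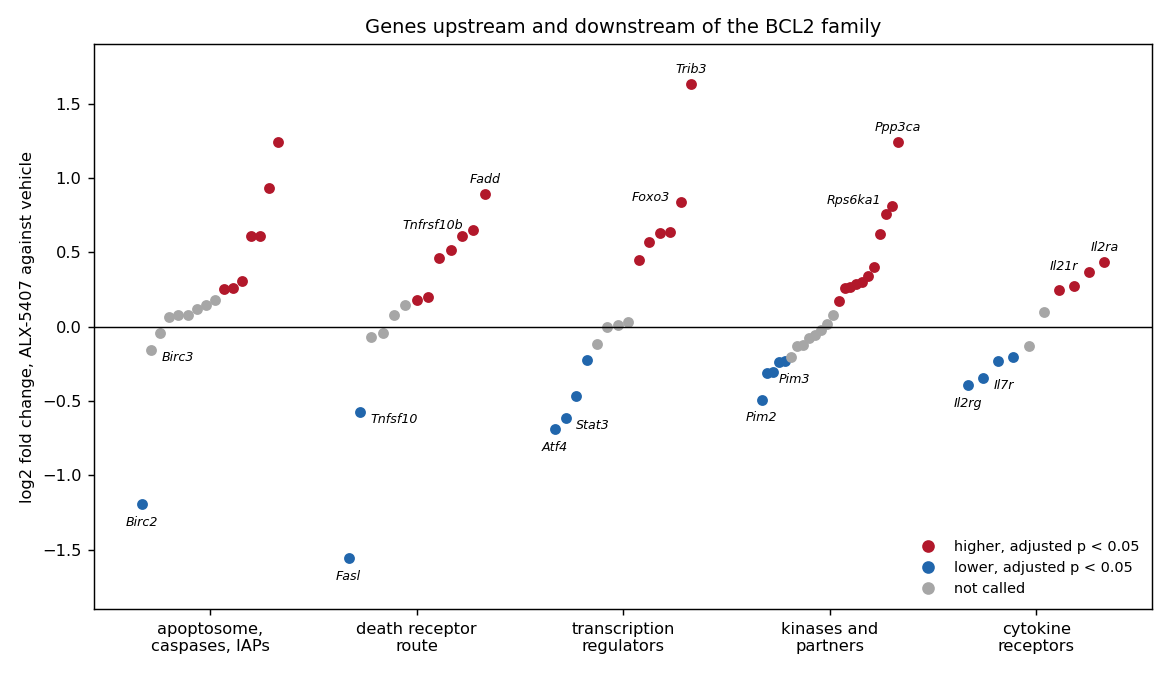
Log2 fold change of ALX-5407 against vehicle for the tested genes of each list around the BCL2 family, with a point for each gene coloured by whether it was called higher, lower or not. The points lie on both sides of 0 in every list, with medians from -0.014 for the cytokine receptors to 0.18 for the death receptor route.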

How the data were processed

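RNA sequencing of 6 cultures was used, 3 with vehicle and 3 with 500 nM ALX-5407, grouped by their labels, and 0 columns of the table were left unmapped. The deposited table holds read counts for 54532 genes per library, which the authors left without normalization. The submitters' processing notes name fastp, HISAT2 2.0.5, featureCounts 1.5.0-p3 and mm10. The treatment of multi-mapping reads and the strand setting are not given in the sources used here. The labels describe poly-T capture of RNA and the study's methods describe depletion of ribosomal RNA, which can alter the level of transcripts without a poly-A tail.

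From the deposited counts, edgeR 4.0.16 in R 4.3.3 was run on all 6 libraries with filterByExpr (minimum count 10, minimum total 15), TMM factors (0.965 to 1.028) and its quasi-likelihood F test. P-values of the 15938 genes tested were adjusted together by the Benjamini-Hochberg method, and a gene was called under 0.05. CPM values use library sizes scaled by the TMM factors. With 3 cultures against 3, an exact permutation test cannot give a p under 0.1, so single values such as ratios were not tested. Within groups, pairs of libraries varied beyond counting noise (a chi-square of 5.67 to 22.9 per degree of freedom), so none was merged. The fit was tested on simulated data. Alternatives were other scaling factors and filters, DESeq2 1.42.0, limma-voom (limma 3.58.1), protein-coding genes alone, a replicate block, a fold threshold and each replicate left out. The same fits were applied to the called genes of the other lists, an alternative chosen after seeing the data.

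The members and lists were chosen with earlier results of these data known. All 10 members were named, and, of each other list, up to 4 called genes in each direction with the smallest adjusted p, plus the prosurvival and BH3-only genes of the wider family. Other genes were named as overlapping genes or cell markers, or as stated. Mdm2, Fas, Tnfrsf1a, Traf2, Tradd, Ripk1, Xiap, Birc5, Birc3 and Ywhaz were named after their values were seen. The results for some genes of the lists are not reported here. Overlaps were taken from GENCODE M21 on GRCm38, where 8 of the 10 members have the same exon length as in the table. Promoter windows are those of RefSeq on GRCm38.p6. Figures were drawn with matplotlib 3.10.9.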

Additional observations from a re-analysis of the deposited data

How the results depend on the processing

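In 15 alternative fits the count of members called higher stayed at 3 and that called lower at 1, except that 4 were higher without ALX-5407 replicate 3, where Bbc3 joined. Leaving out each library in turn gave 3 to 4 higher and 1 lower. With a log2 fold change beyond 1 in size also required, 0 members were higher and 0 lower with the settings of the report, whereas 1 member, Bcl2, was higher in 5 of the 15 alternative fits (total counts only, no low-count filter, and without vehicle replicate 1, ALX-5407 replicate 1 or ALX-5407 replicate 3). Over the fits Bcl2 ranged from 0.94 to 1.06 on the log2 scale, Bcl2l1 from 0.25 to 0.40, Bid from 0.53 to 0.64 and Pmaip1 from -0.53 to -0.35, all called each time. Members with values near 0 changed sign. With total counts only, Mcl1 was at 0.024, Bcl2l11 at 0.050 and Bax at 0.057, and that scaling moved the median of all genes to 0.064. With no low-count filter Bcl2l11 was at 0.00063 and Bax at 0.0079, and Bad was at -0.026 with upper-quartile factors and at -0.020 with protein-coding genes alone. With each replicate left out, Mcl1 ranged from -0.078 to 0.0056, Bcl2l11 from -0.070 to 0.030, Bax from -0.060 to 0.091, Bak1 from -0.019 to 0.10, Bad from -0.069 to 0.099 and Bbc3 from 0.10 to 0.40. The calls of Rel and Jak3 were lost with total counts only (adjusted p = 0.0920 and 0.125 in edgeR). The wider family had 3 genes higher with total counts only and 2 without ALX-5407 replicate 1. With a replicate block 3 members were higher and 1 lower, and 7904 genes were called over all against 7605 without the block. The labels do not say whether same-numbered cultures share more than a number. Correlations of their deviations from group means were -0.0084, 0.00355 and 0.0635, and not every culture correlated best with its own number. With so few cultures per group these correlations cannot settle whether cultures were paired.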
